A study of Mus musculus with 20 samples.

Results

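Dentate gyrus granule neurons were taken from single-nucleus RNA-seq libraries of the hippocampus of 20 male mice as the nuclei that carried at least 4 UMIs (unique molecular identifiers, each counting 1 captured RNA molecule) summed over Prox1, Stxbp6, Dgkh and Fam163b, with at least 1 of Prox1. Nuclei with any UMI of Gad1 or Gad2, with more than 1 UMI summed over the pyramidal genes Fibcd1, Gm2115 and Nectin3, or with any UMI of the glial genes Mog, Pdgfra, Csf1r and Aqp4 were left out. The rule kept 9878 of 160777 nuclei (6.14%), between 202 and 751 in each mouse. Mice were 4.5 to 5.5 months old and were labelled either APP/PS1 (APPSwe/PS1ΔE9, a familial Alzheimer's disease model, in the groups named AD) or WT littermates. Awake mice (6 labelled WT and 3 labelled APP/PS1) received no anesthetic. Isoflurane mice (3 WT and 4 APP/PS1) inhaled 5% reduced to 1.5%, and ketamine/xylazine mice (2 WT and 2 APP/PS1) received 150 mg/kg ketamine with 12 mg/kg xylazine, an agonist of alpha-2 adrenergic receptors. The series' design text gives other sizes for the awake and isoflurane groups, each differing by 1 mouse from the sample labels used here, with the same totals per state. Both anesthetized groups were killed after 3 hours of anesthesia, and the hippocampus was frozen. The sample labels give perfusion with cold PBS and the methods rapid decapitation. In this line both transgenes are driven by the mouse prion protein promoter and are not specific to one neuron type.

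Granule neurons are the principal cells of the dentate gyrus. They receive the perforant path from the entorhinal cortex and send mossy fibres to the pyramidal neurons of CA3. Granule neurons fire sparsely and carry strong tonic and phasic inhibition through GABA-A receptors, the receptor family that isoflurane potentiates. Ketamine blocks NMDA receptors. Prox1, a homeobox factor, is needed for the granule fate, and calbindin (Calb1) is a classical protein marker of mature granule neurons.

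The depth behind each mouse was 583695 to 2399797 UMIs summed over its granule nuclei, with a median of 1513 to 4316 UMIs per nucleus. The nuclei just outside the rule, with a marker sum of exactly 3 and every other condition met, numbered 1750, and 3253 members had a sum of 4 or 5. Granule nuclei without a Prox1 UMI fall among the non-members and were not counted. A list of 20 genes known for granule neurons but not used by the rule summed to 7678 CPM (counts per 1e6 UMIs) in the nuclei just outside, 9160 CPM in the members and 3573 CPM in all nuclei that were not members. Mice 1 to 4 stood apart in their mitochondrial share: mitochondrial transcripts made 0.648% to 1.99% of their granule UMIs and 0.0164% to 0.197% in the other 16 mice. Prnp, which reads the transgene promoter's own gene, ranged from 26.8 to 154 CPM in the 11 mice labelled WT and from 48.0 to 411 CPM in the 9 labelled APP/PS1, of which 3 lay within the WT range. Genotype is therefore given here as labelled. Granule barcodes were almost unshared: 16 of 190 pairs of libraries shared any, at most 2 each.

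The share of granule nuclei was a description of the rule and was not tested. In awake mice the lowest, median and highest shares were 4.04%, 7.11% and 8.67% of all nuclei. They were 3.31%, 6.87% and 7.30% under isoflurane, and 3.57%, 5.52% and 7.75% under ketamine/xylazine. The 3 ranges overlapped. Prox1 levels, also chosen by the rule, had medians of 499 CPM awake, 480 CPM under isoflurane and 486 CPM under ketamine/xylazine. Stxbp6, which encodes amisyn, a regulator of vesicle fusion, had medians of 1118, 880 and 648 CPM in the same order. Medians of Dgkh, a diacylglycerol kinase, were 1065, 1183 and 1255 CPM, and those of Fam163b were 75.5, 95.3 and 112 CPM.

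Most listed granule genes outside the rule were also higher in the selected nuclei than in nuclei chosen for CA3 or CA1 markers. The list was chosen with earlier results of these data known, so this is a description and not an independent check. For comparison, 3986 CA3-marker nuclei (66 to 361 per mouse, 20 mice) and 455 CA1-marker nuclei were taken from the same libraries by Nectin3- or Fibcd1-based sums of the same kind, and 11 mice had at least 20 CA1-marker nuclei. The CA3 sum was over Nectin3, Cpne4, Iyd and Tspan18 and the CA1 sum over Fibcd1, Gm2115, Mpped1 and Wfs1. Both sets had no Prox1 UMI. Granule nuclei without a captured Prox1 UMI could therefore enter the CA3-marker set, and how many did was not counted. The contrast between kinds of nuclei was fixed by the choice of nuclei, so its values are given as a description without p-values. Of the 20 granule genes outside the rule, 19 were called higher in granule than in CA3-marker nuclei and Sema5b lower, with a median log2 difference of 3.46 against 0.06 over all genes; 63.4% of all genes were called in this comparison. Against CA1-marker nuclei all 17 that could be fitted were called higher, with a median log2 difference of 2.74 against 0.06, where 34.4% of all genes were called.

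Calb1 averaged 88.1 ± 31.2 CPM (SD, n = 20) in granule nuclei and 7.21 ± 4.31 CPM in CA3-marker nuclei of the same mice. Glis3, a zinc finger transcription factor, averaged 649 ± 161 CPM against 23.8 ± 12.1 CPM, with the largest log2 difference among genes over 50 CPM that were higher in granule nuclei (4.82 ± 0.13, SE). Rfx3, a winged-helix factor of ciliary genes, averaged 1453 ± 285 CPM against 164 ± 28.7 CPM. For both factors the lowest granule library lay above the highest CA3-marker library. Gabrd, the GABA-A delta subunit of extrasynaptic receptors, averaged 47.5 ± 16.0 CPM against 4.37 ± 3.93 CPM. C1ql2 and C1ql3, secreted synapse organizers of the mossy fibre terminal, averaged 39.4 ± 41.8 and 162 ± 82.9 CPM in granule nuclei against 3.39 ± 4.40 and 14.6 ± 8.81 CPM. The spread of C1ql2 between mice was as large as its mean.

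**Figure D1:**
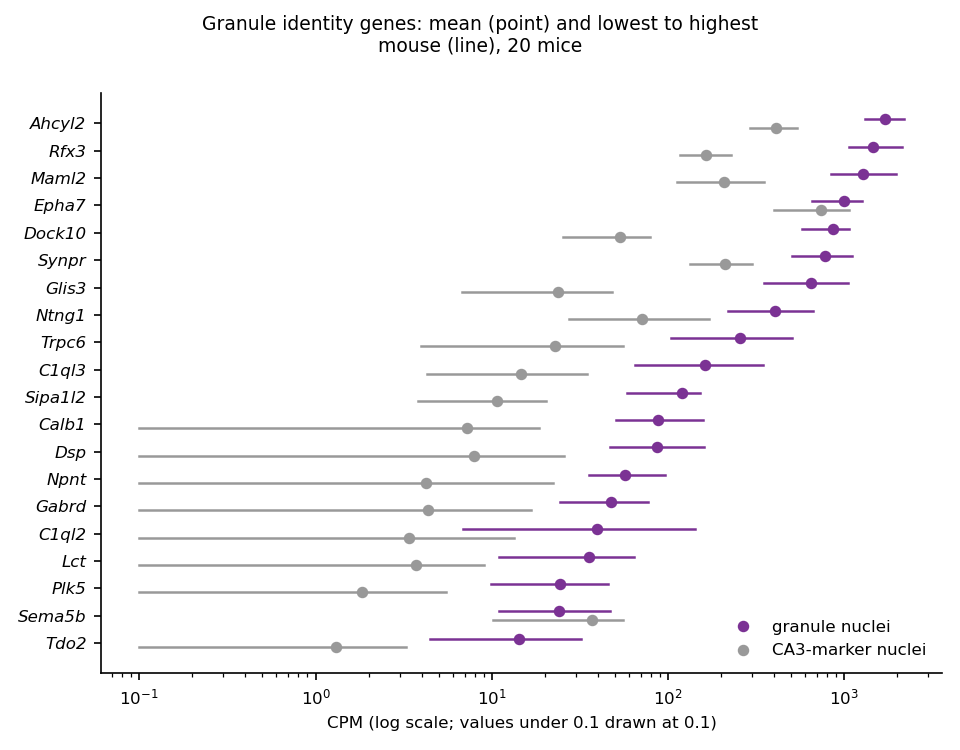
Levels of the 20 granule identity genes outside the selection rule in granule nuclei (purple) and CA3-marker nuclei (grey), in CPM on a log axis; points are means over 20 mice and lines run from the lowest to the highest mouse. Lines of the 2 kinds of nuclei stay apart for 17 genes, whereas Sema5b is the gene whose CA3-marker mean is the higher one. How many of all genes stay apart in this way was not counted, and 63.4% of all genes were called between these nuclei.

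Of the genes higher in CA3-marker nuclei, Kcnq5, a subunit of M-type potassium channels, averaged 155 ± 93.4 CPM in granule nuclei against 3927 ± 494 CPM. Spock1, a secreted proteoglycan, averaged 45.6 ± 27.5 CPM against 835 ± 101 CPM. Against CA1-marker nuclei, Sema5a, a transmembrane semaphorin, averaged 558 ± 44.9 CPM in granule nuclei and 7.73 ± 7.99 CPM in CA1-marker nuclei (n = 11 mice). Ntf3, the neurotrophin-3 gene, averaged 60.2 ± 14.4 CPM against 1.03 ± 2.41 CPM. Chrm3, a muscarinic receptor, was the reverse, at 84.5 ± 62.3 CPM in granule nuclei and 1540 ± 428 CPM in CA1-marker nuclei.

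Markers of other cells were not absent. The summed level of 5 oligodendrocyte genes in granule nuclei was 48.7% of that over all nuclei, and those of 5 endothelial and mural genes and of 4 Cajal-Retzius genes were 21.2% and 12.0%. The astrocyte list reached 105%, carried by Slc4a4, a bicarbonate cotransporter at 809 CPM in granule nuclei, whereas Gja1 was at 10.8 CPM. The interneuron list reached 102%, carried by Adarb2 at 1664 CPM, whereas the vesicular GABA transporter gene Slc32a1 was at 1.46 CPM. Both carriers were among the genes highest in granule over CA3-marker nuclei. The remaining lists stood at 86.0% (microglia), 24.2% (oligodendrocyte precursors), 19.3% (CA1), 129% (CA3, from Cpne4 and Tspan18), 107% (CA2), 95.9% (mossy cells) and 40.6% (choroid plexus). The 14 genes of immature granule neurons summed to 64.5% of the level over all nuclei. Dcx (doublecortin) was at 19.8 CPM against 36.7 CPM over all nuclei and was found in 5.51% of granule nuclei, and Eomes, the progenitor factor Tbr2, had no UMI. Sox11 (29.4 against 25.1 CPM), Bhlhe22 (10.1 against 7.25 CPM), Tbr1 (5.03 against 4.87 CPM) and Neurod1 (3.76 against 2.27 CPM) of that list were higher in granule nuclei than over all nuclei.

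Isoflurane against wakefulness asked which granule transcripts differed after 3 hours of anesthesia. On sums per mouse, 149 of 12644 genes (1.18%) passed an adjusted p of 0.05 in edgeR's quasi-likelihood test, 70 of them higher (0.554%) and 79 lower (0.625%). Before adjustment 1570 passed 0.05. The count was 463 with runs of mouse numbers as a block, 50 without mice 1 to 4, and from 46 (mouse 10) to 245 (mouse 11) when 1 mouse was left out. The median log2 change of all genes was 0.003. The 8 genes with the smallest p that fell encode a calcium-stimulated adenylyl cyclase, a cation channel, an ephrin receptor, a cadherin, a sialyltransferase, an auxiliary subunit of GABA-B receptors, a copine and a zinc finger repressor. P-values measure the spread between mice, each of which gave 1 library. Called genes named below were picked by p or by their call in these same mice. Where their awake and isoflurane groups do not overlap, that separation was largely fixed by the choice. Its share over all genes was not counted.

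Adcy8, the adenylyl cyclase stimulated by calcium and calmodulin, was at 44.0, 60.5 and 78.9 CPM (lowest, median and highest of 9 awake mice) and at 14.6, 19.2 and 29.6 CPM in 7 isoflurane mice. The groups did not overlap, and the log2 fold change was -1.54 ± 0.17 (SE, adjusted p = 1.12e-04 by edgeR's quasi-likelihood test). Trpc6, a cation channel opened by diacylglycerol, was at 322, 356 and 513 CPM awake and at 106, 176 and 205 CPM under isoflurane, again without overlap. Its log2 fold change was -1.10 ± 0.13 (adjusted p = 2.34e-04 by edgeR's quasi-likelihood test). Trpc6 was also a granule identity gene, with 257 ± 107 CPM in granule and 22.8 ± 11.6 CPM in CA3-marker nuclei.

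Epha5, an ephrin-A receptor kinase, was at 546, 678 and 741 CPM awake and 296, 337 and 575 CPM under isoflurane (log2 -0.85 ± 0.12, adjusted p = 0.00195 by edgeR's quasi-likelihood test). One isoflurane mouse reached the awake range. Cdh10, a classical cadherin, fell from a median of 105 CPM to 58.2 CPM (log2 -1.29 ± 0.19, adjusted p = 0.00213), with overlapping ranges. Ntng1, the membrane-anchored netrin-G1, ranged from 397 to 673 CPM awake and from 223 to 473 CPM under isoflurane, with overlapping ranges (log2 -0.84 ± 0.14, adjusted p = 0.00574 by the same test).

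Kctd16, an auxiliary subunit of GABA-B receptors, was among the more abundant of these genes, at 1367, 1647 and 1909 CPM awake and 783, 878 and 1389 CPM under isoflurane (log2 -0.79 ± 0.12, adjusted p = 0.00213 by edgeR's quasi-likelihood test). The highest isoflurane mouse just passed the lowest awake mouse. St3gal1, a sialyltransferase, was at 21.6, 33.2 and 50.3 CPM awake and 4.79, 11.3 and 16.5 CPM under isoflurane (log2 -1.62 ± 0.24), without overlap. Cpne4, a copine that binds phospholipids on calcium, had a log2 change of -0.69 ± 0.10 and Zfp536, a zinc finger repressor, one of -0.65 ± 0.10, both without overlap of the groups. Both passed edgeR's quasi-likelihood test.

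**Figure D2:**
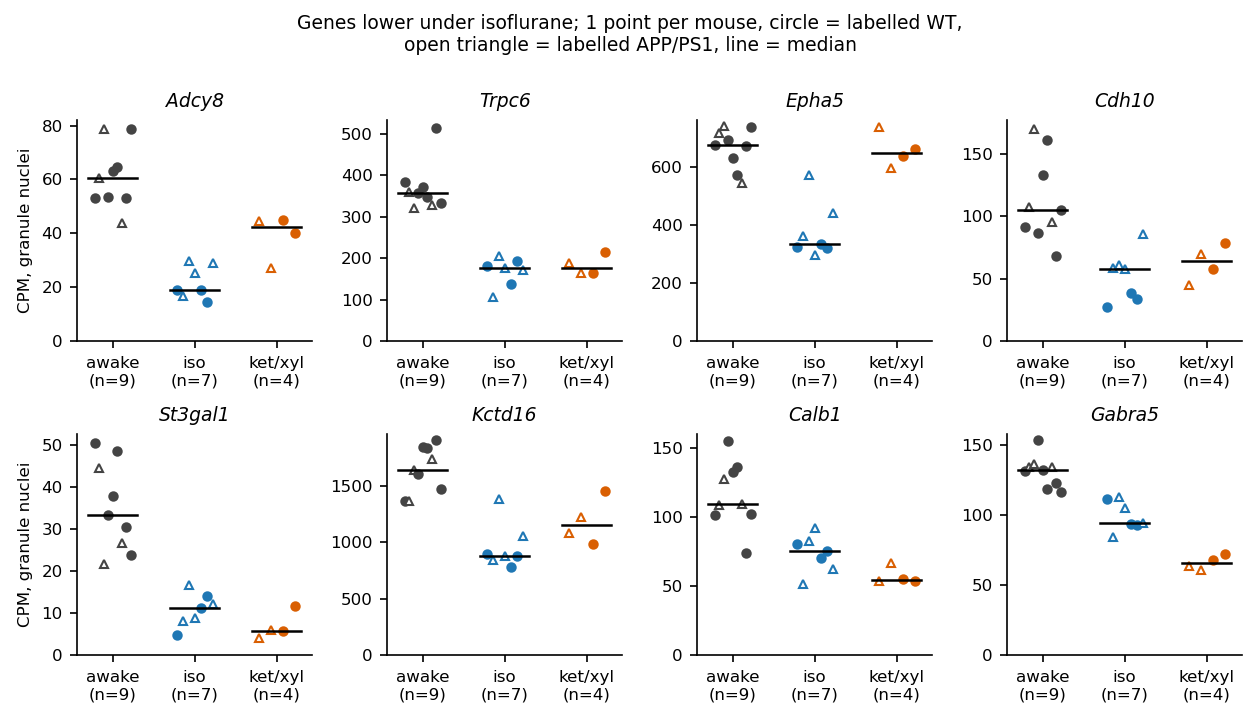
CPM of 8 genes called lower under isoflurane in granule nuclei, with 1 point per mouse for awake (n = 9), isoflurane (iso, n = 7) and ketamine/xylazine (ket/xyl, n = 4) mice; circles are mice labelled WT, open triangles mice labelled APP/PS1 and lines are medians. Isoflurane points of Adcy8, Trpc6, St3gal1 and Gabra5 lie below every awake point, and ketamine/xylazine points of Epha5 lie at the awake level. The 8 genes were called in these same mice, and how many of all genes separate in this way was not counted.

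Calb1, the calbindin gene, was at 73.7, 109 and 155 CPM awake and 51.5, 75.0 and 91.7 CPM under isoflurane (log2 -0.65 ± 0.14, adjusted p = 0.0300 by edgeR's quasi-likelihood test). The ranges overlapped, and the call held in 10 of 20 fits that left out 1 mouse each. Gabra5, the alpha-5 subunit of GABA-A receptors, was at 116, 132 and 153 CPM awake and 84.4, 93.9 and 113 CPM under isoflurane, without overlap (log2 -0.41 ± 0.09, adjusted p = 0.0267 by the same test, called in 13 of 20 such fits). Pde7b, a phosphodiesterase of cyclic AMP, had a log2 change of -0.60 ± 0.13 (adjusted p = 0.0270 by edgeR's quasi-likelihood test, called in 13 of 20 fits). Without mice 1 to 4, whose mitochondrial share was high, the log2 changes were -0.64 for Calb1, -0.41 for Gabra5 and -0.50 for Pde7b, and the adjusted p-values of edgeR's quasi-likelihood test were 0.137, 0.116 and 0.194. Adcy8, Trpc6, Epha5, Cdh10, St3gal1, Kctd16, Cpne4, Zfp536 and Ntng1 were called with and without those mice.

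Genes that rose under isoflurane were a less familiar group, and several were of low abundance. Cenpp, a centromere protein gene, was at 91.2, 123 and 154 CPM awake and 151, 217 and 245 CPM under isoflurane (log2 0.80 ± 0.12, adjusted p = 0.00213 by edgeR's quasi-likelihood test). Pdzd2, a PDZ-domain scaffold, was at 399, 429 and 678 CPM awake and 536, 799 and 954 CPM under isoflurane (log2 0.77 ± 0.14, adjusted p = 0.00618). Sned1, an extracellular matrix gene, was at 5.81, 13.0 and 23.0 CPM awake and 23.8, 29.6 and 47.0 CPM under isoflurane, without overlap (log2 1.29 ± 0.22).

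Lyn, a Src-family kinase, had a log2 change of 0.82 ± 0.16 and Lonrf3, a RING finger gene, one of 0.77 ± 0.14. Catspere2 (0.59 ± 0.10), Iqck (1.28 ± 0.23) and Klhl10 (1.10 ± 0.21), the first and the last of them known from testis, were also called higher by edgeR's quasi-likelihood test. Catspere2 has a close paralog, so its reads may be split between copies. Without mice 1 to 4, Cenpp, Pdzd2 and Lonrf3 remained called, and Sned1 (log2 1.18, adjusted p = 0.0610), Catspere2 (0.59, adjusted p = 0.0587), Iqck (1.03, adjusted p = 0.116), Klhl10 (0.77, adjusted p = 0.173) and Lyn (0.76, adjusted p = 0.107) were not, by the same test. Each of the 16 genes named here for its small p moved in the same direction in all 4 sets of neighbouring mouse numbers that held awake and isoflurane mice. The 16 were chosen by p in these same mice, so this agreement was largely fixed by the choice. How many of all genes did so was not counted.

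**Figure D3:**
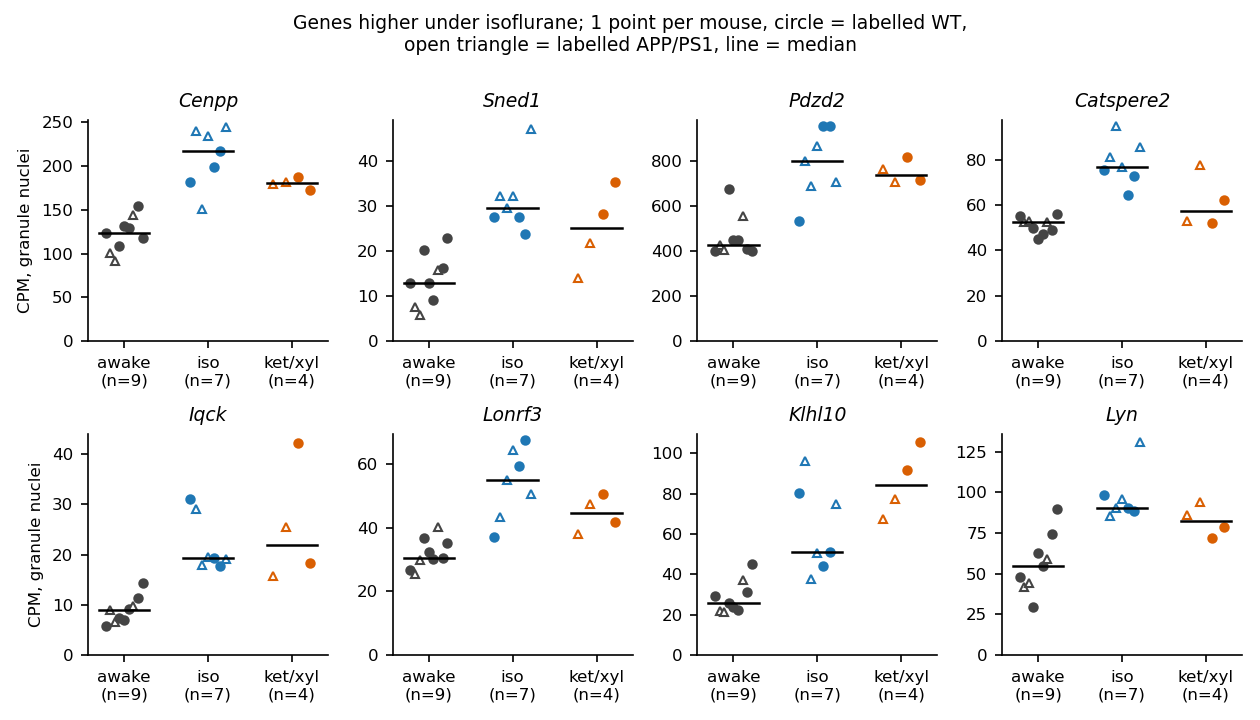
CPM of 8 genes called higher under isoflurane in granule nuclei, drawn with 1 point per mouse for awake, isoflurane (iso) and ketamine/xylazine (ket/xyl) mice; circles are mice labelled WT, open triangles mice labelled APP/PS1 and lines are medians. Isoflurane points of Sned1, Catspere2 and Iqck lie above every awake point, and the highest awake point of Pdzd2, at 678 CPM, is a mouse labelled WT. The 8 genes were picked by p in these same mice, and the share of all genes that separate was not counted.

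Read by gene group, changes were few members of each group, beside 1.18% of all genes called and 0.625% called lower. Of 11 GABA-A receptor subunit genes tested, Gabra5 alone was called, the median log2 change was -0.32 (all genes 0.003), and Gabrd (-0.01 ± 0.23) and Gabra4 (-0.24 ± 0.10), the subunits typical of granule extrasynaptic receptors, were not called. Of 5 NMDA receptor, 9 AMPA and kainate receptor and 10 two-pore potassium and HCN channel genes, none was called, with medians of -0.09, -0.17 and -0.10. Of 20 granule identity genes, Trpc6, Ntng1 and Calb1 were lower and the other 17 were not called (median -0.13). Of 16 cyclic nucleotide phosphodiesterase genes, Pde7b was lower (median -0.10). Map3k15, from the CA2 list, was called higher (log2 1.81 ± 0.44, adjusted p = 0.0479 by edgeR's quasi-likelihood test), from a median of 1.66 CPM to 5.69 CPM, and in 3 of 20 fits that left out 1 mouse. Among the other lists of other cells, Cpne4 of the 4 CA3 genes was called lower and no other member was called. The 5 endothelial and mural genes had a median log2 change of -1.38, with sums of 1.71, 8.75 and 160 CPM awake and 3.28, 8.07 and 34.0 CPM under isoflurane, and 3 choroid plexus genes one of -1.05. Their part in the other results was not tested.

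None was called among 14 immediate-early transcription factors (median -0.19), 27 activity-induced effectors (-0.12), 9 genes of immature granule neurons (-0.26), 18 clock genes (-0.12), 13 glucocorticoid receptors and targets (-0.12), 3 adrenergic receptors (0.05), 8 neuropeptide precursors (-0.09), 20 synapse organizers (-0.13) and 21 heat shock and DnaJ genes (-0.05). Fos had a log2 change of -1.50 ± 0.70 (adjusted p = 0.379 by edgeR's quasi-likelihood test) at medians of 1.62 CPM awake and 0.632 CPM under isoflurane. Bdnf, the neurotrophin gene induced by activity, was at medians of 68.3 and 50.5 CPM (log2 -0.28 ± 0.20, adjusted p = 0.634 by edgeR's quasi-likelihood test). Arc, Npas4 and Penk were too low to be tested.

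Immediate-early genes were also read as a share of nuclei. After each nucleus was thinned to 1000 UMIs, the share with a UMI of Arc, Fos, Egr1, Npas4, Nr4a1, Junb or Fosb was 1.29%, 2.78% and 6.24% (lowest, median and highest awake mouse) and 1.13%, 2.02% and 3.53% under isoflurane. Means were 3.13 ± 1.48% (SD, n = 9) and 2.14 ± 0.81% (SD, n = 7), a difference that a two-sided exact permutation test did not call (p = 0.124). Unthinned, the means were 8.57% and 5.93%. Oligodendrocyte-marker nuclei, a cell type that does not fire, carried these genes in 6.86% of 408 awake nuclei (95% Clopper-Pearson interval 4.61% to 9.77%, counting error only) and 4.52% of 398 isoflurane nuclei at the same thinning. Their unthinned median depths were 679 to 1314 UMIs per mouse. Of the 28 awake oligodendrocyte-marker nuclei with such a UMI, 15 came from mouse 2 and 5 each from mice 1 and 29. None of 7, 26, 35 and 11 nuclei of mice 10, 14, 17 and 19 had one. The background was therefore not resolved within single mice, and the granule shares are not read as expression. Thinning left out 142 awake, 82 isoflurane and 23 ketamine/xylazine granule nuclei. Arc UMIs were found in 14 awake granule nuclei from 6 of 9 mice and 2 isoflurane nuclei from 2 of 7 mice.

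Split by label, the isoflurane change was called for 10 genes in WT mice (0.0791%, all lower, 1098 at an unadjusted p under 0.05) and for 0 genes in mice labelled APP/PS1 (0.0%, 975 at an unadjusted p under 0.05, smallest adjusted p 0.0751 by edgeR's quasi-likelihood test). Of the 10 WT genes, 0 were called without mouse 18, 1 without mouse 16 and 2 without mouse 3, all isoflurane mice. They included Adcy8 (log2 -1.82 ± 0.24), Cdh10 (-1.68 ± 0.27), Trpc6 (-1.17 ± 0.18), Epha5 (-1.02 ± 0.17), Kctd16 (-0.97 ± 0.17) and Mcc (-0.83 ± 0.14). Without mice 1 to 4, Cdh10 (-1.64, adjusted p = 0.10), Epha5 (-1.01, adjusted p = 0.0659) and Mcc (-0.72, adjusted p = 0.112) were not called in WT mice by the same test. Leaving out 1 mouse gave 0 (mouse 18) to 22 (mouse 4) WT calls. The difference between the labels was itself tested: 0 genes had a genotype by isoflurane interaction by edgeR's quasi-likelihood test (0.0%, with 374 below 0.05 before adjustment) and 0 in DESeq2. DESeq2 called 27 genes in mice labelled APP/PS1 and 73 in WT mice, and with runs of mouse numbers as a block the counts were 34 and 84. Calb1, for example, changed by -0.63 ± 0.20 in WT and -0.67 ± 0.21 in APP/PS1 mice, and its interaction was -0.04 ± 0.29. A response limited to one genotype was not shown, and neither was an equal response in both.

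Averaged over awake and isoflurane mice, APP/PS1 minus WT called 0 genes in edgeR (0.0%, with 186 below 0.05 before adjustment). DESeq2 called 0 as well. App, the amyloid precursor protein gene, had a log2 difference of 0.30 ± 0.12 and Prnp one of 1.48 ± 0.46, and neither passed edgeR's quasi-likelihood test (adjusted p = 1.0 for both). The mice labelled APP/PS1 whose Prnp lay within the WT range, mice 11, 17 and 20, were kept under their labels. All 3 were awake or isoflurane mice and so entered this contrast. The 186 genes are fewer than an even spread of p-values would give. A count of 0 calls here does not show that the genotypes are alike.

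Ketamine/xylazine against wakefulness gave more calls, 709 of 12644 genes (5.61%), with 354 higher (2.8%) and 355 lower (2.81%) by edgeR's quasi-likelihood test, and 3026 genes at an unadjusted p under 0.05. The 4 genes with the smallest p that fell encode an inhibitor of Ras signalling, a GABA-A receptor subunit, a semaphorin receptor and a planar polarity protein. The 4 ketamine/xylazine mice share their run of mouse numbers with only 1 awake mouse, and with runs as a block 0 genes were called. In that fit the log2 changes were -0.95 for Spred2 and -0.84 for Gabra5 (adjusted p = 0.228 and 0.340 by edgeR's quasi-likelihood test). Without mouse 27 the count was 62, without mouse 25 it was 163, without mouse 2 it was 338 and without mouse 26 it was 366. The awake mice are the same as in the isoflurane comparison.

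Spred2, an inhibitor of the Ras to ERK cascade, was at 178, 216 and 296 CPM (lowest, median and highest awake mouse) and at 73.1, 91.7, 95.8 and 97.2 CPM in the 4 ketamine/xylazine mice (log2 -1.30 ± 0.14, adjusted p = 3.31e-05 by edgeR's quasi-likelihood test). The awake mouse of the same run was at 178 CPM. Gabra5 was at 63.5, 60.9, 67.6 and 72.0 CPM, all below the lowest awake mouse at 116 CPM (log2 -0.996 ± 0.11, adjusted p = 5.47e-05 by edgeR's quasi-likelihood test). Nrp1, a receptor of semaphorins and VEGF, was at 178, 160, 195 and 152 CPM against an awake range of 342 to 528 CPM (log2 -1.40 ± 0.17). Prickle1, a planar polarity gene, had a log2 change of -0.89 ± 0.12, St3gal1 -2.41 ± 0.34, Zfp536 -0.86 ± 0.12, Zcchc18 -1.27 ± 0.18 and Acad10, an acyl-CoA dehydrogenase, -1.44 ± 0.21. In all 8 of these genes the 4 mice lay below every awake mouse. The 8 were picked by p in the same mice, so this separation was largely fixed by the choice. Its share over all genes was not counted.

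Among genes that rose, Nup93, a nuclear pore scaffold, was at 116, 123 and 139 CPM awake and 224, 200, 189 and 176 CPM under ketamine/xylazine (log2 0.65 ± 0.10, adjusted p = 0.00103 by edgeR's quasi-likelihood test). Ago1, an Argonaute of RNA silencing, was at 43.1, 52.1 and 76.0 CPM awake and 118, 103, 135 and 87.1 CPM in the 4 mice (log2 1.02 ± 0.15). Ankrd44, a subunit of a protein phosphatase 6 complex, was at 8.77 to 16.3 CPM awake and 31.6 to 34.6 CPM under ketamine/xylazine (log2 1.41 ± 0.21). The largest folds belonged to genes near 0 in awake mice. Ccdc81 was at 42.5, 46.6, 63.4 and 13.4 CPM against 2.49 to 9.32 CPM awake, Tigit, an immune checkpoint receptor, at 17.1, 17.3, 29.6 and 11.7 CPM against 0 to 2.87 CPM, and Prg4, the lubricin gene, at 15.3, 46.6, 74.7 and 3.35 CPM against 0 to 3.69 CPM. The fourth ketamine/xylazine mouse was the lowest for all 3. Without mouse 27 the log2 change of Prg4 was 2.50 and not called (adjusted p = 0.194 by edgeR's quasi-likelihood test), against 4.28 with it.

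By group, the GABA-A receptor genes Gabra5, Gabra2 (log2 -0.76 ± 0.17) and Gabra4 (-0.46 ± 0.12) were lower of 11 tested (median -0.35, all genes -0.03), where 2.81% of all genes were called lower and 5.61% called in either direction. Calb1 was at 53.9, 66.9, 55.0 and 53.6 CPM against 73.7 to 155 CPM awake (log2 -1.01 ± 0.18), and it, Trpc6 (-0.97 ± 0.16) and Lct (-1.15 ± 0.26) were the lower ones of 20 identity genes (median -0.27). Of 16 phosphodiesterase genes, Pde8a (1.19 ± 0.25), Pde4d (0.73 ± 0.18) and Pde2a (0.51 ± 0.14) rose and Pde7b (-0.87 ± 0.16) fell. Pde8a, Pde4d and Pde7b hydrolyse cyclic AMP and Pde2a hydrolyses both cyclic nucleotides. All of these were calls of edgeR's quasi-likelihood test, and without mice 1 to 4 only Pde2a among them was not (0.43, adjusted p = 0.0927).

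Of all genes, 5.61% were called under ketamine/xylazine. Among 27 activity-induced effectors, Synpo, a protein of the spine apparatus (-1.22 ± 0.19), and Nrn1, neuritin (-0.92 ± 0.23), fell and Acan, aggrecan (1.76 ± 0.47), rose, with a median of -0.39 over the list. Nrn1 (-0.87, adjusted p = 0.0709) and Acan (1.48, adjusted p = 0.0744) were not called by edgeR's quasi-likelihood test without mice 1 to 4. Of 14 immediate-early factors, Nr4a3 fell (-1.79 ± 0.52, adjusted p = 0.0467 by edgeR's quasi-likelihood test), a call held in 7 of 20 fits that left out 1 mouse, with -3.95 without mouse 28 and -1.26 without mouse 27. Fos was at 38.1, 13.5, 4.23 and 5.03 CPM against 0.708 to 9.23 CPM awake and was not called (1.57 ± 0.73). Per2, a core clock repressor, fell (-2.16 ± 0.39) as 1 of 18 clock genes, at 17.1, 4.51, 1.41 and 5.03 CPM against 13.6 to 38.9 CPM awake. Nr3c2, the mineralocorticoid receptor gene, fell (-0.74 ± 0.20) as 1 of 13 glucocorticoid genes and Dnajb4 (-0.66 ± 0.17) as 1 of 21 chaperones, the latter not called without mice 1 to 4 (-0.63, adjusted p = 0.069 by edgeR's quasi-likelihood test). None of 5 NMDA receptor genes (median 0.02), 9 AMPA and kainate receptor genes (0.06), 10 channel genes (-0.02), 3 adrenergic receptors (-0.50), 8 neuropeptide precursors (-1.42), 20 synapse organizers (-0.08) or 9 immature neuron genes (-0.42) was called.

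Markers of other cells differed between awake and ketamine/xylazine mice. Mbp (log2 -0.93 ± 0.23) and Mobp (-1.69 ± 0.45), genes of myelin, were called lower in granule nuclei, and the 5 oligodendrocyte genes summed to 378, 543 and 886 CPM awake, 392, 467 and 648 CPM under isoflurane and 303, 379 and 452 CPM under ketamine/xylazine. Mobp was not called without mice 1 to 4 (-1.50, adjusted p = 0.111 by edgeR's quasi-likelihood test), and with runs of mouse numbers as a block its change was 0.22 and that of Mbp -0.35. The CA2 gene Map3k15 was called higher (2.12 ± 0.53, adjusted p = 0.025 by the same test) and was not without those mice (1.82, adjusted p = 0.0591). None of 5 endothelial and mural genes was called (median -2.52), and their sum was 1.71, 8.75 and 160 CPM awake and 2.94, 3.72 and 6.79 CPM under ketamine/xylazine. The mitochondrial share was 0.0234%, 0.111% and 0.792% (lowest, median and highest) awake and 0.0164%, 0.0214% and 0.0287% under ketamine/xylazine. The lowest awake value was that of mouse 29, the awake mouse of the ketamine/xylazine run, and lay within the ketamine/xylazine range. The highest was that of mouse 2. The part of these markers and of the mitochondrial share in the other results was not tested.

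**Figure D4:**
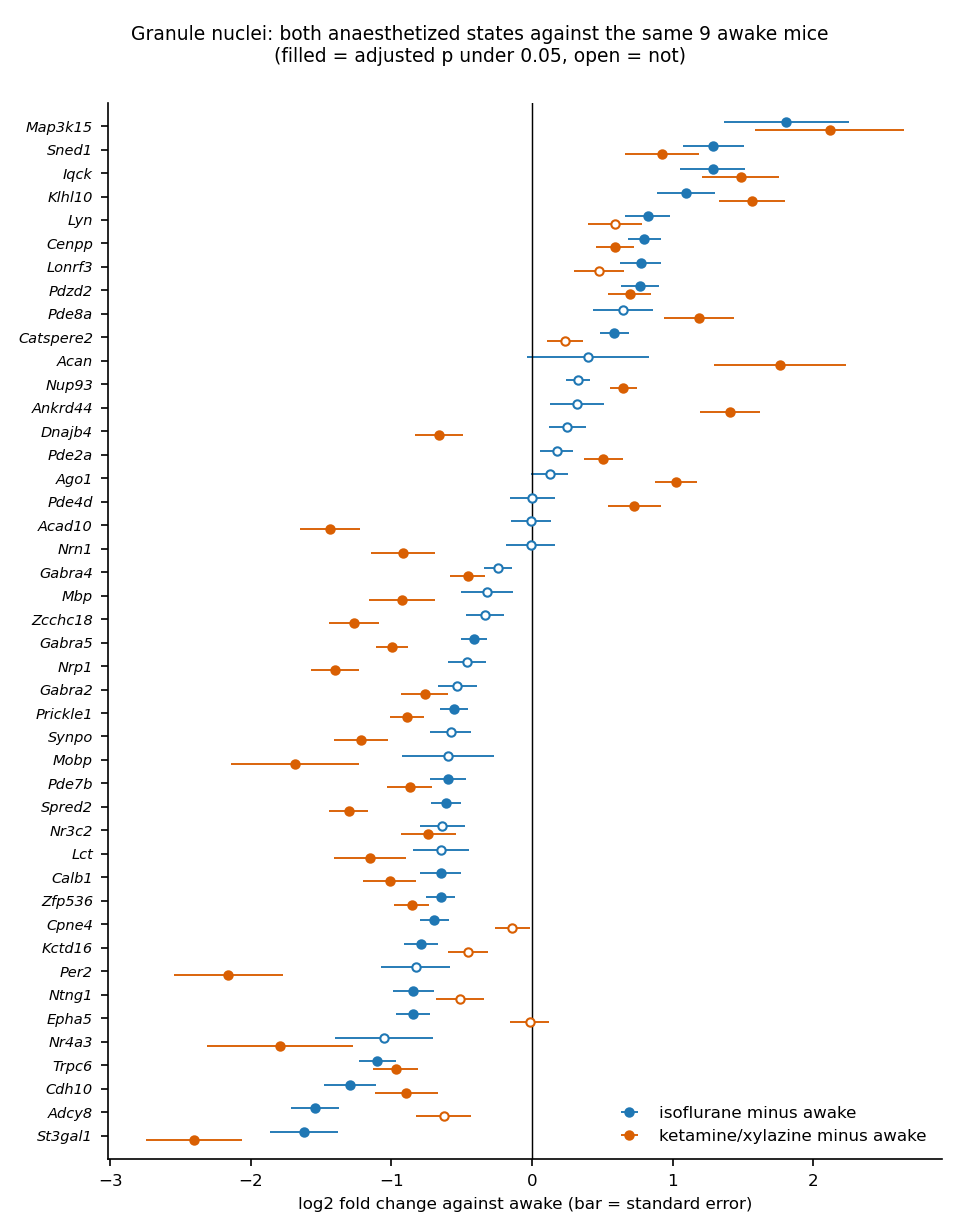
Log2 fold changes against awake mice in granule nuclei for named genes called in at least 1 of the 2 anesthetized states, isoflurane in blue and ketamine/xylazine in orange, with standard errors; filled points passed an adjusted p of 0.05 and open points did not. Both states are set against the same 9 awake mice, and 4 genes with the largest ketamine/xylazine folds (Ccdc81, Tigit, Prg4 and Kifc1) are left out to keep the axis readable.

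Set side by side, with the shared awake mice in mind, Trpc6 changed by -1.10 ± 0.13 under isoflurane and -0.97 ± 0.16 under ketamine/xylazine, and Klhl10 by 1.10 ± 0.21 and 1.57 ± 0.23. Epha5 changed by -0.85 ± 0.12 and -0.02 ± 0.14, and Nrp1 by -0.47 ± 0.13 and -1.40 ± 0.17. The states were compared directly as ketamine/xylazine minus isoflurane, which called 192 genes (1.52%), 99 higher and 93 lower, by edgeR's quasi-likelihood test. With runs of mouse numbers as a block 0 were called, and without mouse 25 the count was 1 and without mouse 27 it was 5.

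Epha5 was higher under ketamine/xylazine, at 738, 597, 638 and 663 CPM against 296 to 575 CPM under isoflurane (log2 0.83 ± 0.14, adjusted p = 0.00681 by edgeR's quasi-likelihood test), with no overlap. It was picked by p in these mice, so this separation was largely fixed by the choice. Hecw2, a ubiquitin ligase (0.98 ± 0.15), Pcnt, pericentrin (1.38 ± 0.23), Atp11b, a phospholipid flippase (0.66 ± 0.11), Cpne4 (0.56 ± 0.13) and Nrxn3, a presynaptic neurexin (0.73 ± 0.16), were also higher. Gabra5 was lower than under isoflurane (-0.58 ± 0.12), as were Nrp1 (-0.94 ± 0.17), Acad10 (-1.43 ± 0.21), Upp2, a uridine phosphorylase (-0.80 ± 0.13), and Rbks, ribokinase (-0.97 ± 0.17). Fos, at 4.23 to 38.1 CPM against 0 to 4.79 CPM, had a log2 difference of 3.07 ± 0.85 and missed the threshold (adjusted p = 0.0698, edgeR's quasi-likelihood test).

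Whether the isoflurane change differed between granule neurons and pyramidal neurons of the same mice was tested directly. Against CA3-marker nuclei the change differed for 239 of 12466 genes (1.92%), more positive in granule nuclei for 109 and more negative for 130, with mouse as a block in edgeR's quasi-likelihood test. Against CA1-marker nuclei, in 11 mice, it differed for 35 of 9818 genes (0.356%), 10 more positive and 25 more negative. Both tests use the granule libraries already described, so they are not independent of the isoflurane comparison above. Without mice 1 to 4 the counts were 103 and 14.

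Kctd16 had the smallest p against CA3-marker nuclei. In granule nuclei it was at 1367, 1647 and 1909 CPM awake and 783, 878 and 1389 CPM under isoflurane, and in CA3-marker nuclei at 776, 855 and 1045 CPM awake and 732, 858 and 994 CPM under isoflurane. The difference in log2 change was -0.70 ± 0.08 against CA3-marker nuclei (adjusted p = 2.29e-08) and -0.97 ± 0.13 against CA1-marker nuclei (adjusted p = 6e-10), both by edgeR's quasi-likelihood test. Its isoflurane median in granule nuclei was near the CA3-marker medians. Epha5 fell in granule nuclei and had medians of 1446 CPM awake and 1327 CPM under isoflurane in CA3-marker nuclei (difference -0.73 ± 0.10, and -0.84 ± 0.14 against CA1-marker nuclei).

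Kcnj3, the GIRK1 subunit of potassium channels opened by G proteins, had medians of 687 and 520 CPM in granule nuclei and of 349 and 390 CPM in CA3-marker nuclei (difference -0.74 ± 0.10). Ppfia2, the presynaptic scaffold liprin-alpha-2 (-0.44 ± 0.07), Stxbp5l, tomosyn-2 (-0.47 ± 0.08), Hecw2 (-0.74 ± 0.10), Mlip (-0.87 ± 0.12) and Rasa1, a GTPase activator of Ras (-0.66 ± 0.10), had differences of the same sign. Each passed edgeR's quasi-likelihood test.

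Of the GABA-A receptor genes, 4 of 11 had a more negative change in granule than in CA3-marker nuclei (list median -0.30, all genes 0.01; 1.92% of all genes called), among them Gabra2 (-0.51 ± 0.12) and Gabra5 (-0.47 ± 0.10). Gabra5 had medians of 132 and 93.9 CPM in granule and 177 and 193 CPM in CA3-marker nuclei. Gabra2 and Gabra5 differed from CA1-marker nuclei in the same direction (-0.65 ± 0.15 and -0.82 ± 0.20), Gabra5 in 6 of 11 fits that left out 1 mouse. Without mice 1 to 4 neither was called against CA1-marker nuclei (-0.47 and -0.65, adjusted p = 0.667 and 0.694 by edgeR's quasi-likelihood test). Bdnf had medians of 68.3 and 50.5 CPM in granule and 45.9 and 59.6 CPM in CA3-marker nuclei (difference -0.60 ± 0.14), and Nr3c2 a difference of -0.36 ± 0.07. All were calls of edgeR's quasi-likelihood test, and without mice 1 to 4 Bdnf was not called (-0.54, adjusted p = 0.0986).

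Other genes differed the opposite way. Msmo1, a sterol oxygenase of cholesterol synthesis, had medians of 20.5 CPM awake and 18.6 CPM under isoflurane in granule nuclei and of 40.4 and 17.8 CPM in CA3-marker nuclei (difference 1.33 ± 0.21). Its CA3-marker median was lower under isoflurane. Tesc, tescalcin (1.33 ± 0.20), Inf2, a formin (1.24 ± 0.18), Pygb, brain glycogen phosphorylase (0.65 ± 0.11), and Gria1, the GluA1 subunit (0.28 ± 0.06), also had a more positive change in granule nuclei. Of 9 AMPA and kainate receptor genes, Gria1 was the only one called this way, and Grik2 was called the other way (list median -0.09). Of 15 immediate-early factors, Btg2 (1.18 ± 0.31), Egr3 (1.52 ± 0.42) and Fos had a more positive change, beside 1.92% of all genes called. Fos was listed at 0 in the CA3-marker nuclei of all 7 isoflurane mice. Fos medians in granule nuclei were 1.62 and 0.632 CPM, so its granule median was not higher under isoflurane. Against CA1-marker nuclei, Trpc6 (-2.56 ± 0.31), Adcy8 (-1.63 ± 0.28), Mlip (-1.61 ± 0.19) and Arpp21, a cyclic AMP regulated phosphoprotein gene (-0.87 ± 0.14), were more negative in granule nuclei. Kirrel3, a synaptic adhesion gene (0.67 ± 0.14), and Dab2ip, a Ras GTPase activator (1.67 ± 0.39), were more positive. All were calls of edgeR's quasi-likelihood test. Trpc6 was low and variable in CA1-marker nuclei, at 10.1 to 125 CPM in 11 mice. Its granule change was -1.10 over all mice, so the difference of -2.56 is not the granule fall alone. In the test against CA3-marker nuclei, which used 20 mice, neither Trpc6 nor Adcy8 was called. Without mice 1 to 4, Dab2ip (1.59, adjusted p = 0.187), Gria1 (0.22, adjusted p = 0.153), Egr3 (1.73, adjusted p = 0.0595) and Fos (adjusted p = 0.232) were not called by the same test.

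**Figure D5:**
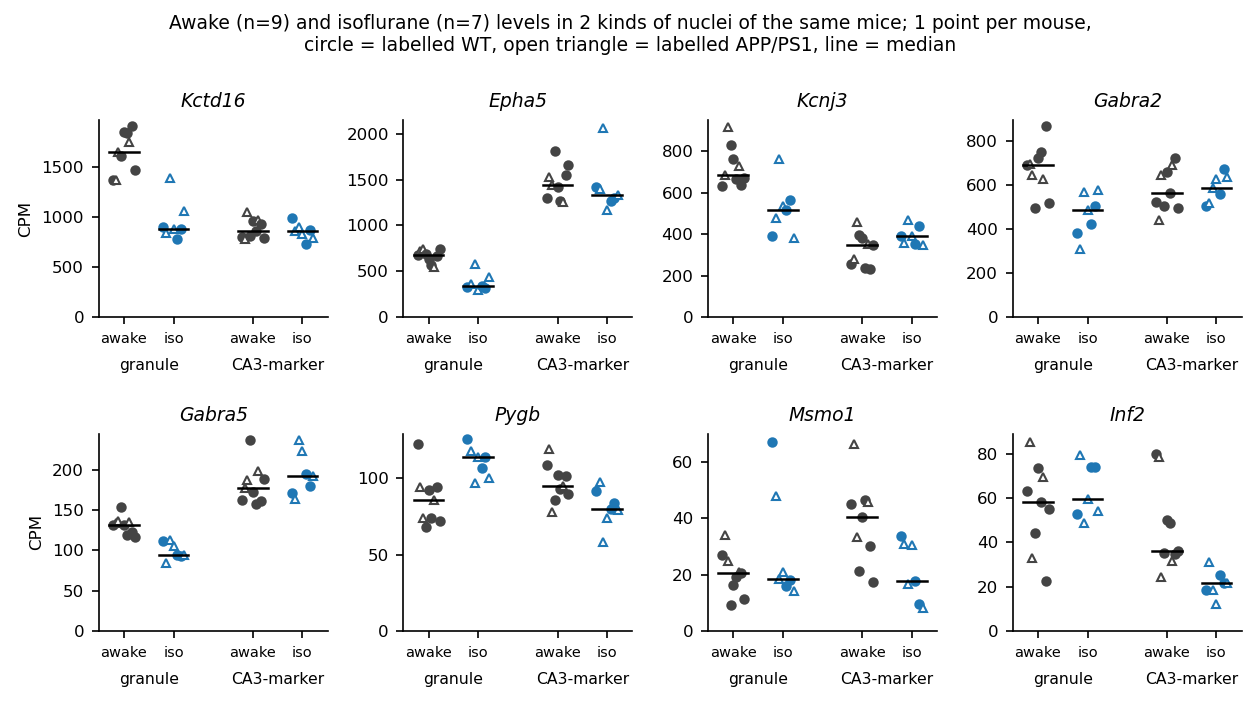
CPM of 8 genes in granule nuclei and CA3-marker nuclei of the same mice, awake (n = 9) and under isoflurane (iso, n = 7), with 1 point per mouse; circles are mice labelled WT, open triangles mice labelled APP/PS1 and lines are medians. Kctd16, Epha5, Kcnj3, Gabra2 and Gabra5 have lower medians under isoflurane in granule nuclei, and Pygb, Msmo1 and Inf2 have lower medians in CA3-marker nuclei. Granule values use TMM-scaled library sizes and CA3-marker values use total UMIs.

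Promoter sequence was looked up for the called genes because cyclic AMP response elements sit in many activity-regulated promoters. RefSeq promoters (250 bases before the start, GRCm38.p6) were matched by symbol for 9510 of 12644 tested genes, and TGACG, the core of that element, was searched on both strands. It occurred in 31.1% of all these promoters, in 24.5% of 53 promoters of genes lower under isoflurane and in 24.0% of 50 of those higher. Under ketamine/xylazine the shares were 30.8% of 263 lower genes and 30.2% of 268 higher genes. The full palindrome TGACGTCA, which contains the core, occurred in 3.16% of all promoters, 1.89% and 0.0% of those lower and higher under isoflurane, and 4.94% and 2.99% of those lower and higher under ketamine/xylazine. TGANTCA, the AP-1 element, occurred in 5.20% of all promoters, 11.3% and 10.0% of those lower and higher under isoflurane, and 4.94% and 7.09% under ketamine/xylazine. The counts behind the isoflurane shares of TGANTCA were 6 and 5 genes, and no test was made.

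These promoters are shown because Trpc6, Gabra5 and Spred2 were lower than in every awake mouse in both anesthetized states. St3gal1 and Zfp536 met the same condition and are not shown. The promoters shown are examples and not a measure of how common the core is. Each is written 5′ to 3′ on the gene's strand, with a match to TGACG, or CGTCA where it lies on the other strand, in capitals.
Trpc6, chr9:8543892-8544141, plus strand, match 103 to 99 bases before the start: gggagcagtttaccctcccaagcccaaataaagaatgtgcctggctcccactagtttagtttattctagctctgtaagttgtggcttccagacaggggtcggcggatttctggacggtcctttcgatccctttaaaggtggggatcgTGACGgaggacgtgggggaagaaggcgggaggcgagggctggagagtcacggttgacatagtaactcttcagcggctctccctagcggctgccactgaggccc
Gabra5, chr7:57510060-57510309, minus strand, no match: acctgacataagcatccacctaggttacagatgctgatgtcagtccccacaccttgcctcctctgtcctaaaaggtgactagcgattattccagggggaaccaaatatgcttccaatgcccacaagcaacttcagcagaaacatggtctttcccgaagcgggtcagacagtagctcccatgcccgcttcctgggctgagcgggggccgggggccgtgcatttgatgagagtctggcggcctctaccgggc
Spred2, chr11:19924192-19924441, plus strand, match 51 to 47 bases before the start: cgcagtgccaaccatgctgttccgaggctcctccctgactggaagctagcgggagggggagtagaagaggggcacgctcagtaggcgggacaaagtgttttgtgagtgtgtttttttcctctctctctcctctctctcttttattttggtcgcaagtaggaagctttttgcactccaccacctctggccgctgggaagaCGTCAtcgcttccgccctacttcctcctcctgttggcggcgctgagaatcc
The Trpc6 and Spred2 windows hold the core once. A match is a description of letters and not of binding.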

How the data were processed

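Hippocampal nuclei of 20 mice were profiled by droplet single-nucleus RNA-seq. The authors deposited, per sample, a matrix of raw UMI counts per gene and nucleus; per the file headers and the labels it was made with Cell Ranger 5.0.0 on mm10. The study's methods also name CellBender for ambient RNA, and whether it acted on the deposited counts is not given in the sources used here. The methods name DoubletFinder for the study's own analysis. No doublet caller was run here, and nuclei over 3 times the median UMIs of their mouse's granule nuclei (163) were left out in an alternative.

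Members, gene lists and alternatives were chosen with earlier results of these data known. Raw UMIs of granule nuclei were summed per mouse and tested across 6 groups with edgeR 4.0.16 (TMM, filterByExpr, robust quasi-likelihood, Benjamini-Hochberg over 12644 genes, R 4.3.3), without a block. CPM values of granule nuclei per mouse and of the contrasts between kinds of nuclei use TMM-scaled library sizes. Levels of marker lists and their members, and the awake and isoflurane levels of CA3-marker nuclei, use total UMIs without that scaling. Contrasts between kinds of nuclei had mouse as a block and left out genes of either rule. Tests were checked on simulated counts. Named genes were the 8 called genes with the smallest p in each direction, called members of 27 lists and a fixed set (Prnp, App, Calb1, C1ql2, Penk, Gabrd, Gabra4 and activity genes), and between kinds of nuclei the 8 with the largest change each way at 50 CPM or more; genes without a symbol of their own were counted only. Coordinates follow GRCm38. Alternatives were DESeq2 1.42.0, RLE scaling, other gene filters, runs of mouse numbers as a block, mice 1 to 4 left out, a marker sum of 6, equal nuclei per mouse and leaving out each mouse. The CA3-marker test of the response and the values within runs were added after seeing the data. The methods state that tissue was handled in batches of 4 that held each awake and anesthetized group of both genotypes. The labels do not name the batches, so runs of mouse numbers (1 to 4, 10 to 13, 14 to 17, 18 to 20 and 25 to 29) stand in. Runs 10 to 13, 18 to 20 and 25 to 29 do not hold each awake and isoflurane group, so the block need not match the batches. Some called genes are not reported here.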

Additional observations from a re-analysis of the deposited data

Results flagged for a closer look

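In 9 of 76 groups of 4 to 10 mice tested over 38 measures, 1 mouse lay far from the others by Dixon's criterion, where chance gives about 1 in 20. Some concern isoflurane mice labelled APP/PS1 for genes that rose: Cenpp was at 151 CPM in mouse 11 against 235 to 245 CPM in the others, Sned1 at 47.0 CPM in mouse 20 against 29.6 to 32.3 CPM, and Iqck at 29.2 CPM in mouse 4 against 17.9 to 19.6 CPM. Cdh10, which fell, was at 86.1 CPM in mouse 20 of that group against 58.2 to 61.3 CPM. Among awake mice labelled WT, Pdzd2 was at 678 CPM in mouse 12 against 399 to 451 CPM, and Trpc6 at 513 CPM in mouse 19 against 334 to 384 CPM. Bdnf was at 133 CPM in mouse 19 (awake, WT) against 53.5 to 76.0 CPM, and at 94.9 CPM in mouse 15 (isoflurane, APP/PS1) against 48.9 to 50.5 CPM. C1ql2 was at 129 CPM in mouse 1 (awake, WT) against 11.1 to 33.5 CPM, and mouse 1 is among the mice with a high mitochondrial share.

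The isoflurane change differed between granule and CA3-marker nuclei for 239 genes and between granule and CA1-marker nuclei for 35 genes, each by edgeR's quasi-likelihood test of the difference itself.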

How the results depend on the processing

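The count of genes that differed between isoflurane and awake mice, 149, was 249 with DESeq2, 463 with runs of mouse numbers as a block, 50 without mice 1 to 4, 92 at a marker sum of 6 and 69 with equal nuclei per mouse. All 149 were also called by DESeq2 and 147 with the block, but 46 of 148 without mice 1 to 4. Leaving out 1 mouse gave 46 (mouse 10) to 245 (mouse 11), and mice 2 (62), 18 (60), 4 (66), 16 (74), 3 (79), 13 (84), 15 (89) and 14 (95) also moved it by over 1.5 times. The 10 WT calls were 73 with DESeq2, 27 without a gene filter, 84 with the block, 6 at a marker sum of 6, 3 with equal nuclei and 0 (mouse 18) to 22 (mouse 4) when 1 mouse was left out, with 2 (mouse 16), 4 (mouse 3), 5 (mice 13, 14 and 19), 6 (mice 15, 17 and 25 to 28) and 17 (mouse 11) between. The 0 APP/PS1 calls were 27 with DESeq2, 4 without a gene filter, 4 for genes in at least 10% of nuclei, 34 with the block, 2 without high-UMI nuclei and 0 to 15 (mouse 11) without 1 mouse, with 3 for mouse 17. The 709 ketamine/xylazine calls were 345 with equal nuclei, 0 with the block and 62 to 905 without 1 mouse. The 192 calls against isoflurane were 422 with DESeq2, 125 at a marker sum of 6, 115 without high-UMI nuclei, 54 with equal nuclei, 0 with the block and 1 (mouse 25) to 245 without 1 mouse, with 5 (mouse 27), 41 (mouse 18), 44 (mouse 28), 52 (mouse 15), 65 (mouse 26), 78 (mouse 16), 106 (mouse 4) and 116 (mouse 13) also over 1.5 times away. Mobp under ketamine/xylazine turned to 0.22 (log2) with the block. The response differences were 14 (CA1-marker) and 103 (CA3-marker) without mice 1 to 4, and without 1 mouse 19 (mouse 18) to 48, with 23 for mouse 2, and 134 (mouse 18) to 244, with 158 for mouse 2 and 146 for mouse 16. Kinds of nuclei gave 2592 to 2872 and 6343 to 6584 calls without 1 mouse. The early-gene difference, -0.99 percentage points, was -0.28 for Arc alone (exact permutation p = 0.0357), -1.46 without mice 1 to 4 (p = 0.0455, exact permutation) and -1.22 to -0.60 without 1 mouse, where leaving out mouse 3 (p = 0.0468) or mouse 12 (p = 0.0488) passed 0.05 by the same exact permutation test. Counting each named gene under each alternative, called genes of the isoflurane comparison kept their call in 544 cases and lost it in 58, and those of ketamine/xylazine in 868 and 127. In 1 more ketamine/xylazine case, Mobp with the block, the direction turned and the call was lost. Named genes without a call gained one in 1 and 2 cases. The interaction and genotype counts stayed at 0 in every fit that left out 1 mouse. Depth limits genes below a few CPM. The cause of these shifts was not tested.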
